A study of Mus musculus with 12 samples.

Results

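The comparison described here set cardiac fibroblasts treated with MCB-613-10-1 for 24 h against cells that received vehicle for 24 h, across all genes, and followed the response by abundance, gene family and biotype. It used 6 of the 12 libraries of the series, chosen by the label for treatment and time, and 15575 of the 27020 genes listed in the 24 h table had enough reads to be tested. The RNA of all libraries was from primary fibroblasts of C57BL/6 mouse hearts, kept in medium with fetal bovine serum. The 3 vehicle libraries (replicates 1 to 3) received ethanol, and the 3 treated libraries (replicates 1 to 3) received 6 µM MCB-613-10-1, which derives from MCB-613. No age, sex, litter or passage is given, and it is not stated whether replicates were separate cultures or animals, so p-values measure only the spread between these libraries, which may be technical. Whether the library kit kept strand is not stated, and the column names of the 24 h group means carry a prefix that is not explained.

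The title of the series links steroid receptor coactivators to NRF2, and its design text asks which transcripts of cardiac fibroblasts respond to the compound. Steroid receptor coactivators are nuclear proteins that bind transcription factors and recruit histone acetyltransferases to their target genes. NRF2 is held at low levels by KEAP1, which hands it to the ubiquitin ligase machinery for degradation by the proteasome, and electrophiles or oxidants that modify KEAP1 let NRF2 accumulate and switch on genes of glutathione, thioredoxin, iron and heme metabolism. Misfolded proteins act through a separate route, in which heat shock factors switch on the chaperone genes, and cardiac fibroblasts are best known as the cells that lay down collagen and small proteoglycans in the heart.

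Total counts ran from 25016754 to 34877090 per library, ribosomal RNA took 2.27 to 4.09% of them, and mitochondrially encoded transcripts took 0.405 to 0.648%. The log2 CPM values of genes correlated between libraries with r of 0.99 to 0.992 within groups (6 pairs) and 0.904 to 0.92 between groups (9 pairs), over genes, which are not independent replicates. Fibroblast markers were present in every library: the 11 fibroblast markers summed to 2407 to 2838 RPKM in vehicle and to 1103 to 1135 RPKM in treated libraries, 9 of them fell and only Ddr2, a collagen receptor, rose. RPKM here stands for TMM-scaled CPM divided by the deposited gene length in kilobases. Cardiomyocyte markers were near 0, with sums of 2.24 to 2.58 RPKM in vehicle and 0.824 to 1.18 RPKM in treated libraries, most of it Tnnt2, and Actc1 and Myh6 were at 0 in treated libraries. Markers of macrophages and leukocytes were present at 238 to 282 RPKM in vehicle and at 92.9 to 110 RPKM in treated libraries, most of it Lyz2, the lysozyme of myeloid cells; 8 of the 9 fell and Csf1r rose slightly (log2 fold change 0.22). Markers of endothelium (8.39 to 10.6 against 7.37 to 7.99 RPKM), of pericytes and smooth muscle (8.66 to 11.2 against 1.84 to 2.32 RPKM) and of epicardium and mesothelium (23.5 to 27.3 against 11.5 to 14.2 RPKM) were low. Fewer cells of a type and less RNA per cell cannot be told apart in such bulk libraries, and since no spike-in RNA is named, every level is relative to the rest of its library.

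The transcriptome was rewritten across most of its detected genes at 24 h. Of the 15575 genes tested, 11628 (74.7%) were called at an adjusted p under 0.05 in edgeR's quasi-likelihood test, 5713 higher (36.7%) and 5915 lower (38%). The treated and vehicle libraries did not overlap in 77.5% of the tested genes. A change of at least 2-fold was found for 4908 genes (31.5%), 2112 higher (13.6%) and 2796 lower (18%), and these shares are the background for the counts of each gene group that follows. The median over all tested genes was -0.02 on the log2 scale. Scaling by library totals in place of TMM moved that median by -0.19 and gave 4529 higher and 7095 lower calls (39% of calls higher, against 49.1% with TMM), and scaling by the upper quartile moved it by -0.09. In the table of comparisons that the authors deposited, 11330 genes had an adjusted p under 0.05, and 10771 of them were among the genes called here with the same direction, with 0 in the opposite direction.

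The balance between rise and fall differed between classes of abundance. Abundance is the mean RPKM over the 6 libraries, treated ones included, so a rise can lift a gene's class and a fall can lower it. Among the 3718 genes from 0.1 to 1 RPKM, 18.5% were at least 2-fold higher and 26.4% at least 2-fold lower, with a median log2 fold change of -0.19. Among the 6694 genes from 1 to 10 RPKM these shares were 10.5% and 18.9%, with a median of -0.09. From 10 to 100 RPKM (4287 genes) they were 13.1% and 9.47%, with a median of 0.16 that turned to -0.03 with library totals. At 100 RPKM or more (428 genes) 17.1% were at least 2-fold higher and 6.54% at least 2-fold lower, with a median of 0.32. Large falls outnumbered large rises in the classes of low mean RPKM, and the order was reversed in those of high mean RPKM. The definition of the classes partly sets this order in advance. Hspa1b was in the highest class with a mean of 20.3 RPKM in vehicle, and Star (0.823 RPKM in vehicle) was from 10 to 100 RPKM. Classes by the vehicle libraries alone were not made. The 448 tested genes under 0.1 RPKM had a median of -0.22, and 89 of them rose and 121 fell.

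**Figure D1:**
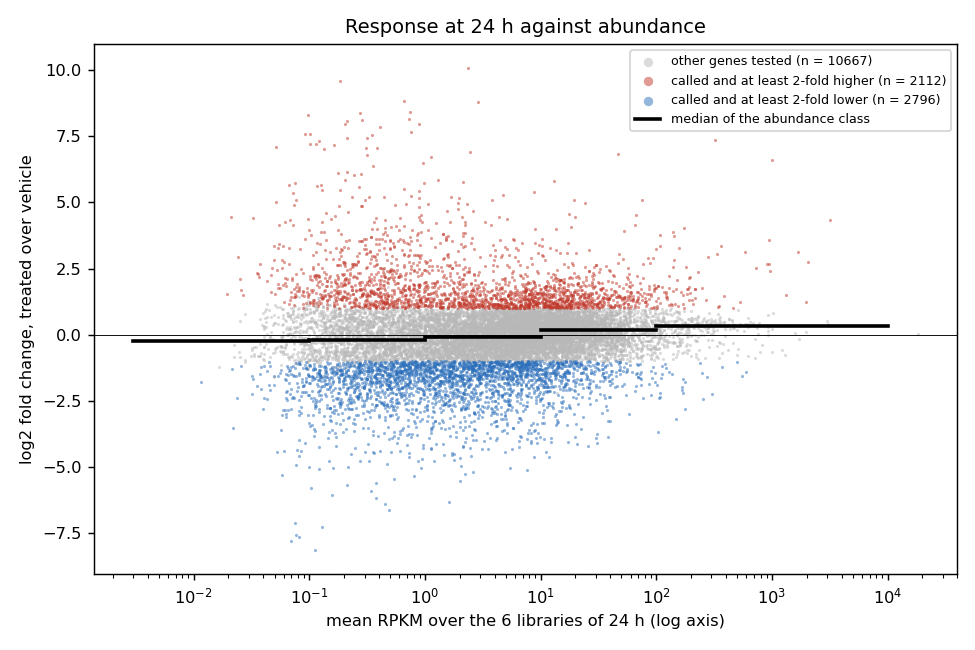
Each point is 1 of 15575 tested genes, with its mean RPKM over the 6 libraries of 24 h on a log axis and its fitted log2 fold change, treated over vehicle; black bars mark the median of each abundance class. The class medians climb from -0.22 under 0.1 RPKM to 0.32 at 100 RPKM or more. The mean RPKM includes the treated libraries, so the response itself moves genes between classes. The fitted values of genes with no read in 1 group depend on the prior count.

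A few transcripts took up a larger part of the treated libraries. The 10 most counted protein-coding genes held 5.38 to 5.41% of coding counts in vehicle and 7.65 to 8.02% in treated libraries, and 915 to 930 genes made up the first 50% of coding counts in vehicle against 737 to 768 in treated libraries. Hspa8, the constitutive Hsp70 chaperone, moved from rank 19 to rank 1 (0.255% ± 0.00663 to 1.51% ± 0.0548 of coding counts, SD, n = 3). Hmox1, which encodes the heme-degrading enzyme heme oxygenase, moved from rank 209 to rank 2 (0.0585% ± 0.000904 to 1.04% ± 0.0161). Sqstm1, which encodes the autophagy receptor p62, moved from rank 58 to rank 3 (0.131% ± 0.00631 to 1% ± 0.0608). None of the 3 was among the 10 most counted genes in vehicle, and they led the treated libraries. Collagens left the top of the list: Col1a1 went from rank 3 to rank 27 and Col3a1 from rank 12 to rank 346.

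**Figure D2:**
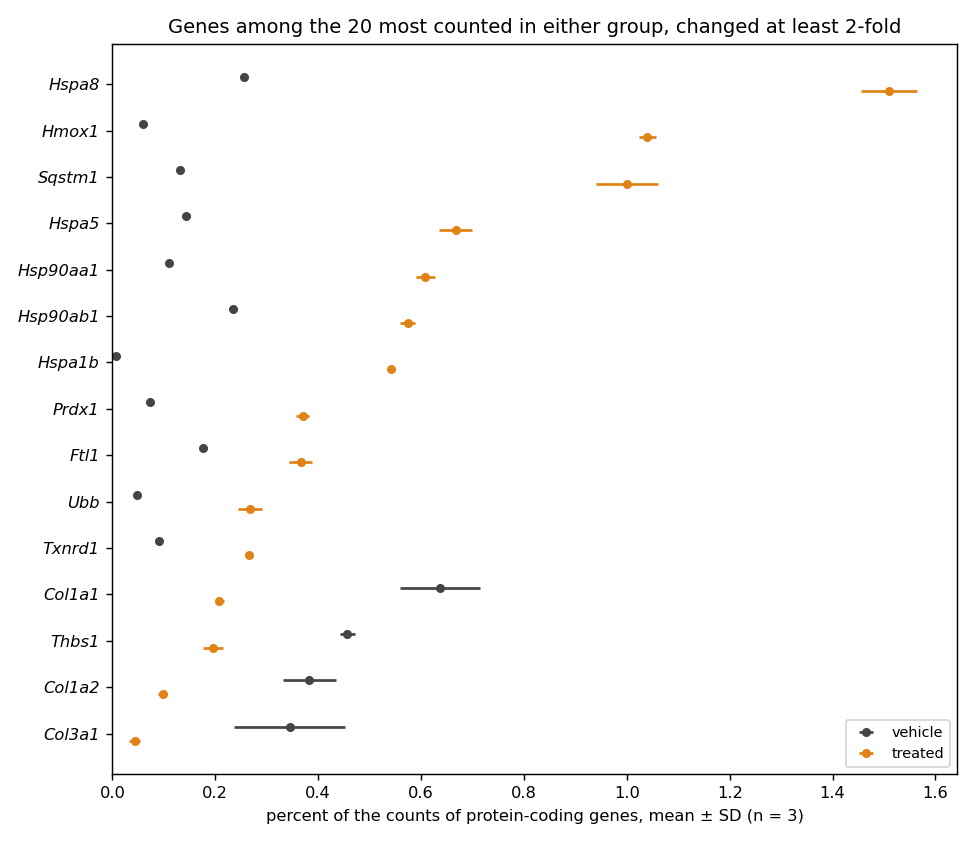
Points are the mean percent of protein-coding counts taken by each gene in vehicle and treated libraries, with the SD over 3 libraries as error bars, for genes that were among the 20 most counted in either group and had a fold of at least 2. Hspa8, Hmox1 and Sqstm1 lie at 1% or more of coding counts only in the treated group, and Col3a1 and Col1a2 lie at the low end there.

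Among rare transcripts (0.1 to 1 RPKM), the 3 largest rises were genes with no read in any vehicle library. Grhl2 (ENSMUSG00000022286, GRCm39 chr15:37233280-37363813), a grainyhead transcription factor of epithelia, was at 0 RPKM in every vehicle library and at 0.387, 0.386 and 0.333 RPKM in the treated libraries, at least 109-fold higher against a floor of 3 counts over the group (adjusted p = 3.02e-10). Trim54 (ENSMUSG00000062077, chr5:31274056-31294974), a muscle ring finger protein of the TRIM family, was at 0 in vehicle and at 1.76, 0.748 and 1.45 RPKM, at least 62.1-fold higher (adjusted p = 6.12e-08). Fgf21 (ENSMUSG00000030827, chr7:45263310-45264914), a stress-induced endocrine FGF, was at 0 in vehicle and at 1.67, 1.47 and 1.28 RPKM, at least 47.8-fold higher (adjusted p = 6.16e-08). All 3 were detected in each treated library. Without vehicle replicate 1, the largest library, the floor rests on fewer reads and the bounds are 68.6-fold for Grhl2, 39.2-fold for Trim54 and 30.2-fold for Fgf21. In all, 24 tested genes (15 of them protein coding) had no read in any vehicle library, and 6 (5 coding) had none in any treated library. Such genes passed the filter on low counts only through the group that held their reads, and all 24 and all 6 were called. Their calls were thus largely set by the filter, and their adjusted p-values add little.

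The largest falls at the same abundance left no reads, or 2 reads, in the treated group. Gdf10 (ENSMUSG00000021943, chr14:33645544-33659940), a ligand of the TGF-beta superfamily, had 0.158, 0.0871 and 0.424 RPKM in vehicle and no read in treated libraries, at least 30.5-fold lower (adjusted p = 0.0025); the bound is 17.2-fold without vehicle replicate 3, which held most of its reads, and 18.5-fold without treated replicate 2. Defb42 (ENSMUSG00000054763, chr14:63284440-63295598), a beta-defensin, had 0.395, 0.134 and 0.246 RPKM in vehicle and no read in treated libraries, at least 16.9-fold lower (adjusted p = 2.81e-05; 10.3-fold without treated replicate 2). Dclk3 (ENSMUSG00000032500, chr9:111268149-111318186), a doublecortin-like kinase, had 0.992, 0.679 and 1.21 RPKM in vehicle and 0.0135, 0 and 0.0145 RPKM in treated libraries. Its 2 remaining reads give a ratio of 114 with a 95% exact counting interval of 31.3 to 946, and the ratio is 69.3 (19 to 575) without treated replicate 2. Such intervals and floors cover counting error only. All 3 genes passed the filter on low counts only through the vehicle libraries, so their calls were largely set by it. Groups that did not overlap were a condition for naming these 3 genes, and the vehicle libraries of Gdf10 spread widely among themselves.

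From 1 to 10 RPKM the rises were again close to on-off. Krtap4-16 (ENSMUSG00000046474, chr11:99741481-99742434), a keratin-associated protein gene of hair, was at 0 in vehicle and at 6.06, 4.57 and 3.42 RPKM in treated libraries, at least 152-fold higher (adjusted p = 1.38e-10; 96.3-fold without vehicle replicate 1); it lies in a cluster of similar genes, so its reads are uncertain to that extent. Mt3 (ENSMUSG00000031760, chr8:94879235-94880774), a metallothionein known from brain, was at 0, 0 and 0.028 RPKM in vehicle and at 5.99, 6.57 and 4.78 RPKM in treated libraries, a ratio of 637 (95% exact counting interval 114 to 25210) because only 1 read was seen in vehicle. That read was in vehicle replicate 3, without which Mt3 is at least 143-fold higher, and without vehicle replicate 1 the ratio is 402 (71.9 to 15921). Rnf183 (ENSMUSG00000063851, chr4:62345777-62353489), a membrane-bound RING ubiquitin ligase, rose from 0.0699, 0 and 0.0391 RPKM to 5.13, 4.96 and 4.51 RPKM (log2 fold change 6.88 ± 0.35 SE, adjusted p = 7.89e-13; 7.71 without vehicle replicate 1). The treated libraries of all 3 genes lay far above every vehicle library. The 3 genes passed the filter on low counts only through the treated libraries, so their calls were largely set by it. Rnf183 had 4, 0 and 2 reads in vehicle, so its fitted sizes depend on the prior count.

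The falls from 1 to 10 RPKM were less even between libraries. Olfml1 (ENSMUSG00000051041, chr7:107166653-107190301), a secreted olfactomedin-like protein, went from 3.73, 1.79 and 4.07 RPKM to 0.0966, 0.0193 and 0 RPKM (log2 fold change -6.31 ± 0.61, adjusted p = 6.68e-06). Heyl (ENSMUSG00000032744, chr4:123127349-123143668), a transcriptional repressor induced by Notch, went from 4.39, 2.2 and 5.23 RPKM to 0.183, 0.0637 and 0.00851 RPKM (-5.53 ± 0.74, adjusted p = 0.00235). Iigp1 (ENSMUSG00000054072), an interferon-inducible GTPase, went from 6.41, 3.31 and 3.2 RPKM to 0.252, 0.0336 and 0.0598 RPKM (-5.28 ± 0.72, adjusted p = 0.00246). Treated replicate 1 was the highest treated library for each of these genes, and without it the log2 fold changes were -7.90 for Olfml1, -6.60 for Heyl and -6.57 for Iigp1. Olfml1 had 4, 1 and 0 reads in treated libraries, so its fitted sizes depend on the prior count.

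Rises from 10 to 100 RPKM were large and tight. Star (ENSMUSG00000031574, chr8:26296583-26306010), which carries cholesterol into mitochondria at the start of steroid synthesis, rose from 0.893, 0.859 and 0.718 RPKM to 95.5, 91.4 and 91.4 RPKM, 112-fold (log2 fold change 6.81 ± 0.07, adjusted p = 7.52e-23). Nppb (ENSMUSG00000029019, chr4:148070245-148071662), which encodes the B-type natriuretic peptide, rose from 0.784, 0.29 and 0.229 RPKM to 30.1, 24.7 and 21.5 RPKM (5.80 ± 0.28, adjusted p = 5.7e-09; 6.58 without vehicle replicate 1). Atf3 (ENSMUSG00000026628, chr1:190902493-190950236), a stress-induced bZIP factor, rose from 4.19, 4.2 and 4.51 RPKM to 142, 141 and 158 RPKM, 34.2-fold (5.09 ± 0.06, adjusted p = 1.94e-21). For Star and Atf3 the libraries of a group differed by little beside the step between groups, and for Nppb vehicle replicate 1 stood above the other vehicle libraries.

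The largest falls from 10 to 100 RPKM were mitotic genes. Ccna2 (ENSMUSG00000027715, chr3:36619014-36626299), the cyclin of S phase and mitotic entry, fell from 24, 22.7 and 22.1 RPKM to 1.05, 1.04 and 0.682 RPKM, 24.6-fold (log2 fold change -4.62 ± 0.10, adjusted p = 2.38e-15). Ckap2l (ENSMUSG00000048327, chr2:129110130-129139132), a mitotic spindle protein, fell from 21.4, 20.1 and 21.8 RPKM to 1.1, 1.12 and 0.68 RPKM (-4.42 ± 0.12, adjusted p = 2.37e-14). Plk1 (ENSMUSG00000030867, chr7:121758662-121769096), a kinase of mitotic entry and spindle assembly, fell from 49.6, 47.4 and 48 RPKM to 4, 1.88 and 2.14 RPKM (-4.19 ± 0.27, adjusted p = 0.000126). The vehicle libraries agreed closely for these genes, and treated replicate 1 held the most Plk1 among treated libraries.

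At 100 RPKM or more, chaperone and heme oxygenase transcripts rose and matrix transcripts fell. Hspa1a (ENSMUSG00000091971, chr17:35188166-35191132), an inducible Hsp70, rose from 3.92, 3.87 and 3.97 RPKM to 650, 665 and 619 RPKM, 164-fold (log2 fold change 7.36 ± 0.06, adjusted p = 1.99e-24). Hspa1b (ENSMUSG00000090877, chr17:35175412-35178214), its neighbour, rose from 20.2, 20.7 and 20.1 RPKM to 1958, 1969 and 1980 RPKM, 96.8-fold (6.60 ± 0.05, adjusted p = 1.99e-24). The coding sequences of these neighbours are near-identical, so how reads were split between them is uncertain. Hmox1 (ENSMUSG00000005413, chr8:75820249-75827217) rose from 302, 296 and 293 RPKM to 5919, 6001 and 6243 RPKM, 20.4-fold (4.35 ± 0.05, adjusted p = 5.9e-22). The 3 libraries of each group lay close together for all of these rises.

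The abundant falls varied more between libraries. Ccn5 (ENSMUSG00000027656, chr2:163662781-163675066), a matricellular protein of the CCN family, went from 199, 145 and 233 RPKM to 26, 12.8 and 6.9 RPKM (log2 fold change -3.66 ± 0.55, adjusted p = 0.00377). Mgp (ENSMUSG00000030218, chr6:136849433-136852821), the matrix Gla protein that inhibits calcification, went from 287, 159 and 348 RPKM to 50.1, 19.9 and 18.7 RPKM (-3.17 ± 0.58, adjusted p = 0.00744). Col3a1 (ENSMUSG00000026043, chr1:45350698-45388866), the chain of fibrillar collagen type III, went from 332, 208 and 399 RPKM to 55.9, 44.2 and 34.7 RPKM (-2.80 ± 0.35, adjusted p = 0.00192). Vehicle replicate 2 was the lowest vehicle library and treated replicate 1 the highest treated library for each of these genes. Groups that did not overlap were a condition for naming them. Without treated replicate 1 the log2 fold changes were -4.26 for Ccn5 and -3.77 for Mgp.

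**Figure D3:**
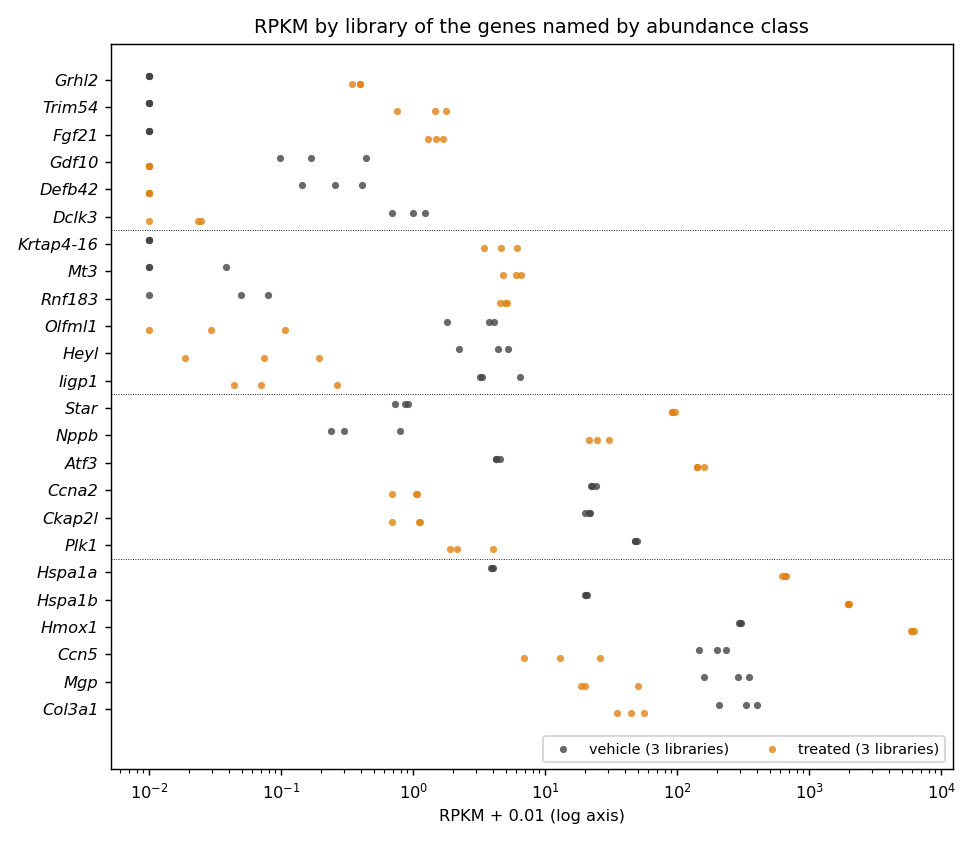
Points show the RPKM of each library plus 0.01 on a log axis for the 24 genes named by abundance class, with vehicle and treated libraries on separate rows of each gene and dotted lines between the 4 classes. For every gene the 3 treated libraries lie on 1 side of the 3 vehicle libraries, which was a condition for naming it. The points at 0.01 are libraries with no read.

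Promoter sequence was read from RefSeq windows of GRCm38.p6 for the 250 bases before each annotated start, and short motifs were searched on both strands. A window was found for 10586 of the 13336 tested protein-coding genes (79.4%), too few to compare motif shares between genes that rose and genes that fell, so that comparison is void and the sequences serve as description only. For 2206 genes more than 1 window was found, and a match in any of them counted. The AP-1 motif TGANTCA, bound by Fos and Jun factors, occurred for 5.86% of the genes with a window. Both it and the antioxidant response element TGACNNNGC occurred for 133 genes, in the same or in different windows, with overlapping letters for 52. Among the genes with the largest rises named above, the windows of Fgf21, Mt3, Nppb, Atf3, Hspa1a and Hspa1b held no AP-1 match. Those of Trim54, Krtap4-16 and Rnf183 held a match, 139, 230 and 35 bases before the start. The stretches around the matches are shown for these genes because their windows hold the motif, and capitals mark the match, which may lie on either strand.
Trim54, chr5:31116433-31116519, plus strand: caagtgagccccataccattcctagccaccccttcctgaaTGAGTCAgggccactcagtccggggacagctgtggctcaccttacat
Krtap4-16, chr11:99851789-99851855, minus strand: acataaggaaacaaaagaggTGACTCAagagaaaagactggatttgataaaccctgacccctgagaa
Rnf183, chr4:62434641-62434715, minus strand: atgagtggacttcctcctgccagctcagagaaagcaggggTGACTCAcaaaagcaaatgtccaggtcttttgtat

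The motif of C/EBP-ATF heterodimers, TGATGNAA, occurred in the windows of 2.55% of genes. It was found in the windows of Atf3, 110 bases before the start, and of Fgf21, 139 bases before the start, where it reads on the opposite strand; this pair was chosen after the values of both genes were seen. The cell cycle homology region TTTGAA occurred in the windows of 13.1% of genes, among them Ckap2l and Col3a1. It lay 30 bases before the start in Ckap2l and 247 bases before it in Col3a1, also on the opposite strand. The windows of Gdf10, Defb42, Olfml1 and Plk1, genes of large falls named above, held no such match. A match is a run of letters and shows neither binding nor a cause, and no window was matched for Grhl2, Dclk3, Heyl, Iigp1, Star, Ccna2, Hmox1, Ccn5 and Mgp.
Atf3, chr1:191183396-191183483, minus strand: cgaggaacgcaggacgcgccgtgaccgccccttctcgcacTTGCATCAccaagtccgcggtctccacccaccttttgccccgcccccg
Fgf21, chr7:45615582-45615669, minus strand: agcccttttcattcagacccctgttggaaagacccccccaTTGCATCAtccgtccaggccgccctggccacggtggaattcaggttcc
Ckap2l, chr2:129297213-129297282, minus strand: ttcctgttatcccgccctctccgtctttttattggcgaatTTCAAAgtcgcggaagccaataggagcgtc
Col3a1, chr1:45311288-45311336, plus strand: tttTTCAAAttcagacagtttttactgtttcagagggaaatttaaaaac

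Noncoding genes responded in another proportion than coding genes. Of 13336 tested protein-coding genes, 12.1% were at least 2-fold higher and 18.7% at least 2-fold lower (median -0.06). Of 1121 tested lncRNA genes, 26.1% were at least 2-fold higher and 18.8% at least 2-fold lower (median 0.24). Of 182 genes of the biotype TEC, loci still to be experimentally checked, 30.2% were at least 2-fold higher and 13.7% lower (median 0.59). Processed pseudogenes, copies of spliced transcripts whose reads can belong to the parent gene, had 14.7% at least 2-fold higher and 5.59% lower of 733 tested (median 0.30). The higher median of lncRNA genes was also seen at matched abundance: it was 0.14, 0.41 and 0.52 from 0.1 to 1, 1 to 10 and 10 to 100 RPKM, beside -0.41, -0.16 and 0.15 for coding genes of the same classes. The difference between biotypes was not tested. Without strand, reads of an antisense lncRNA and of the gene it overlaps cannot be told apart.

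**Figure D4:**
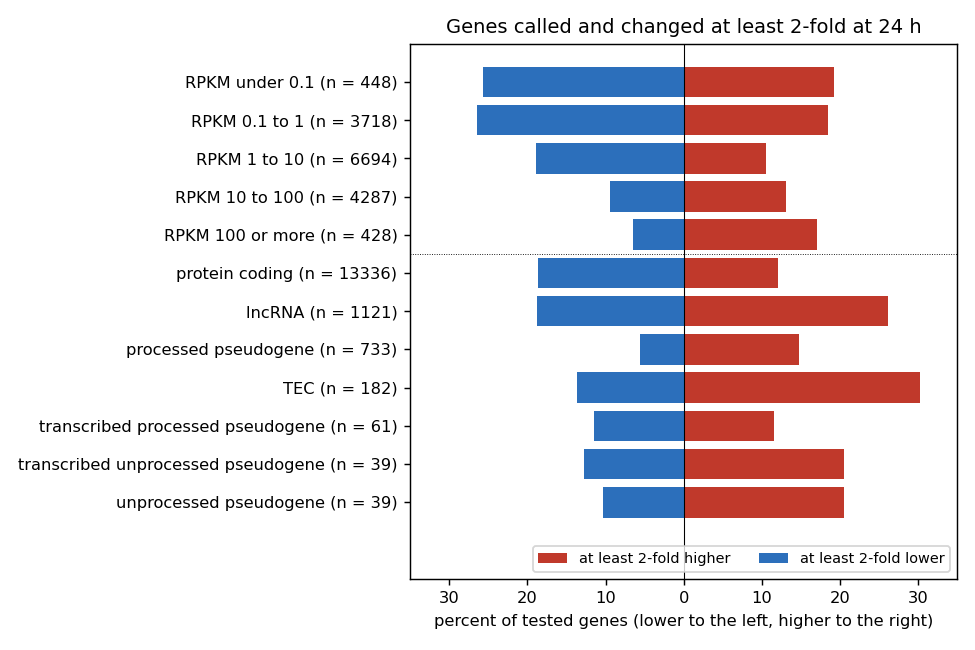
Bars give the percent of tested genes that were called and at least 2-fold higher (to the right) or lower (to the left), for 5 abundance classes above the dotted line and 7 biotypes below it, with the number tested. Lower genes outnumber higher ones at low abundance and among coding genes, while lncRNA, TEC and processed pseudogene bars reach farther to the right.

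The lncRNA genes with the largest changes, 3 in each direction, show the range. The largest rise at 1 RPKM or more was that of 4933412O06Rik (ENSMUSG00000113960, chr13:15956249-15977215), from 0.0711, 0.173 and 0.0797 RPKM to 3.99, 3.57 and 4.03 RPKM (log2 fold change 5.15 ± 0.34, adjusted p = 4.58e-11). Gm11351 (ENSMUSG00000086531) rose from 0.172, 0.0419 and 0.308 RPKM to 3.89, 3.07 and 5.12 RPKM (4.46 ± 0.42; 5.08 without vehicle replicate 3). Gm35037 (ENSMUSG00000107985) rose from 0.0526, 0 and 0.413 RPKM to 2.09, 2.25 and 4.99 RPKM (4.24 ± 0.68; 6.37 without vehicle replicate 3). No role of these 3 transcripts is taken as known here. Gm35037 had 1, 0 and 7 reads in vehicle, so its fitted sizes depend on the prior count. H19 (ENSMUSG00000000031, chr7:142129262-142131886), the imprinted fetal transcript, fell from 2.75, 2.05 and 2.88 RPKM to 0.264, 0.285 and 0.0995 RPKM (-3.52 ± 0.27, adjusted p = 6.22e-10). The unnamed gene ENSMUSG00000120992 (chr17:35215654-35219393) fell from 25.9, 19.9 and 23.7 RPKM to 1.73, 1.33 and 1.64 RPKM (-3.90 ± 0.12, adjusted p = 1.75e-11). Gm33228 (ENSMUSG00000117604) fell from 6.85, 3.62 and 7.69 RPKM to 0.728, 0.278 and 0.106 RPKM (-4.03 ± 0.64, adjusted p = 0.00412; -4.89 without treated replicate 1). Vehicle replicate 2 was again the lowest vehicle library for Gm33228, H19 and ENSMUSG00000120992.

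The families came from 80 symbol patterns, of which 79 had at least 8 tested members. The median log2 fold change was above 0 in 33 families and below 0 in 46. The 12 families with the highest medians were mostly machinery of protein turnover, folding and transport, and the 12 with the lowest were mostly of mitosis, interferon response, signalling and matrix. None of these 24 medians changed sign under the 3 other scalings, which moved the median over all genes by -0.19, 0.02 and -0.09. These families were chosen as the extremes, with medians of 0.43 or more or of -1.01 or less. A change of sign could therefore hardly arise. All member counts are to be read against 36.7% higher and 38% lower calls over all genes.

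**Figure D5:**
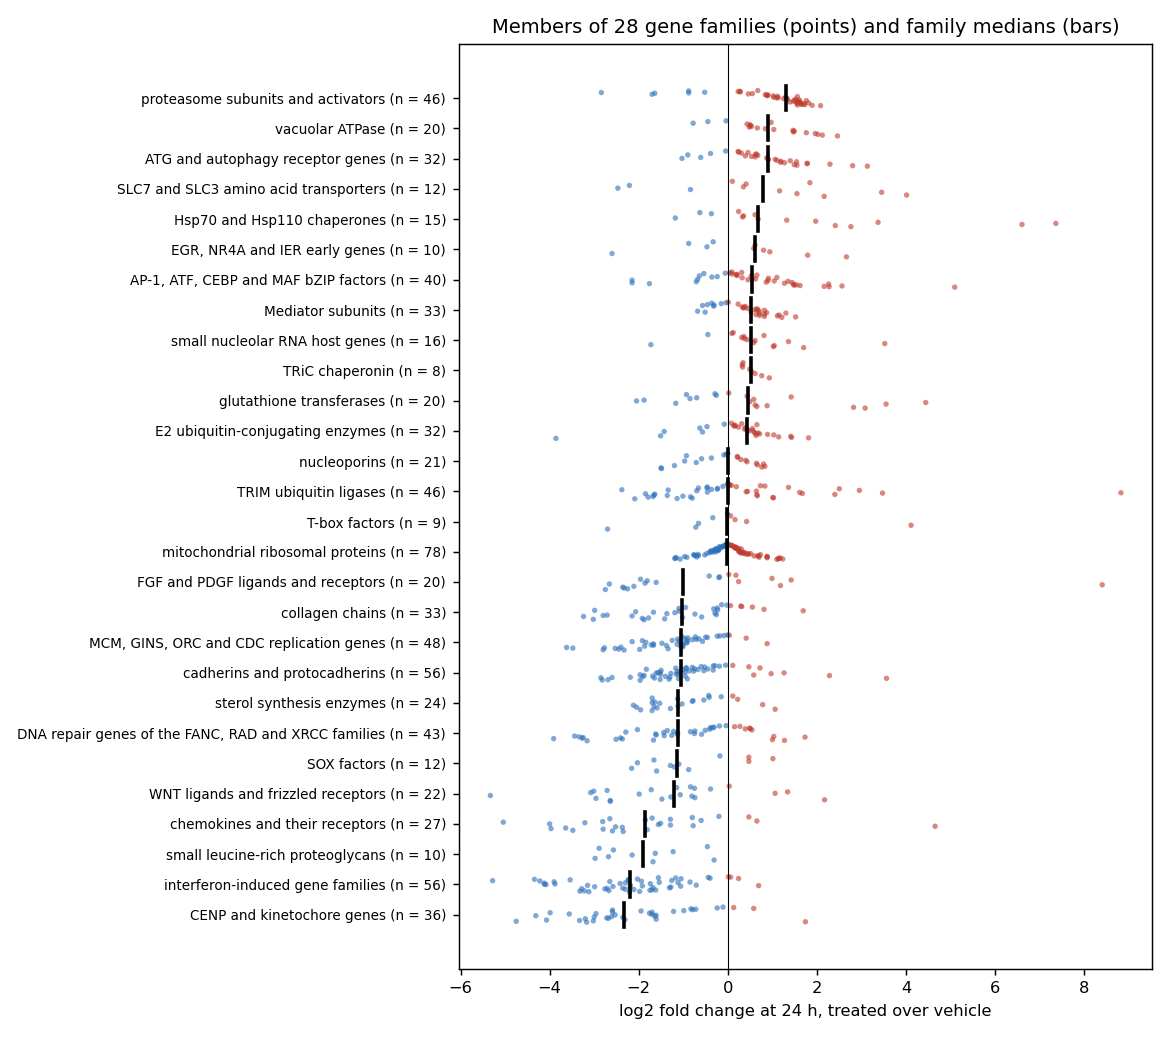
Points are the fitted log2 fold changes of the tested members of 28 families, and black bars mark family medians, from proteasome subunits and activators at 1.31 to CENP and kinetochore genes at -2.34. Members against the trend of their family are visible in most rows, such as Psmb9 among proteasome genes and Zwint among kinetochore genes; the points beyond 8 are Trim54 and Fgf21, which had no read in vehicle.

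Protein degradation led the rises. Of 46 tested genes of proteasome subunits and activators (47 listed), 39 rose and 5 fell, with a median of 1.31, and the RPKM of the tested members summed to 2031, 2076 and 1967 in vehicle and to 4879, 4831 and 5243 in treated libraries. Psmb3, a beta subunit of the core particle, rose from 56.5, 60 and 56.6 RPKM to 244, 229 and 261 RPKM, 4.24-fold (log2 fold change 2.08 ± 0.05, adjusted p = 3.73e-17). Adrm1, the ubiquitin receptor of the regulatory particle, rose 3.71-fold (1.89 ± 0.05). Psmb9, a beta subunit of the interferon-induced immunoproteasome, went the other way, from 0.858, 0.345 and 0.693 RPKM to 0.1, 0.0534 and 0.119 RPKM (-2.84 ± 0.41, adjusted p = 5.09e-06). The other members that fell were Psmb8 (-1.64 ± 0.22) and Psmb10 (-1.70 ± 0.10), also beta subunits of the immunoproteasome, and the activator genes Psme1 (-0.52 ± 0.08) and Psme2b (-0.88 ± 0.16). Among 32 tested E2 ubiquitin-conjugating enzymes, which pass ubiquitin to ligases and substrates, 22 rose and 6 fell (median 0.43). Ube2o rose 3.51-fold (1.81 ± 0.06) and Ube2b 2.69-fold (1.43 ± 0.06), while Ube2c, the partner of the anaphase-promoting complex in mitosis, fell from 38.5, 36.4 and 35.9 RPKM to 3.13, 2.22 and 2.33 RPKM, 14.5-fold (-3.86 ± 0.10, adjusted p = 1.38e-14).

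Lysosomal acidification and autophagy genes rose beside the proteasome. Of 20 tested vacuolar ATPase genes, whose products pump protons into lysosomes, 17 rose and 1 fell (median 0.90), and their summed RPKM went from 543 to 562 in vehicle to 1210 to 1286 in treated libraries. Atp6v1h rose from 12.7, 11.5 and 12 RPKM to 62.9, 65.8 and 70.4 RPKM, 5.5-fold (log2 fold change 2.46 ± 0.05, adjusted p = 5.75e-18), and Atp6v1b2 rose 4.35-fold (2.12 ± 0.05). Atp6v0e2 was the member that fell, from 3.72, 3.33 and 3.62 RPKM to 1.98, 1.97 and 2.3 RPKM (-0.78 ± 0.13, adjusted p = 3.53e-05). Of 32 tested ATG and autophagy receptor genes, 27 rose and 4 fell (median 0.89). Sqstm1 rose from 355, 361 and 329 RPKM to 2929, 2899 and 3298 RPKM, 8.73-fold (3.13 ± 0.06, adjusted p = 1.5e-18). Gabarapl1, an ATG8 protein that coats the forming autophagosome, rose from 35.6, 35 and 35.3 RPKM to 245, 241 and 255 RPKM, 6.99-fold (2.80 ± 0.05, adjusted p = 8.44e-20). Ulk2, a kinase that starts autophagy, fell from 8.1, 7.59 and 8.37 RPKM to 4.1, 3.5 and 4.23 RPKM (-1.03 ± 0.08, adjusted p = 2.75e-10).

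Folding machines of 2 kinds had close family medians but very different largest rises. Of 15 tested Hsp70 and Hsp110 genes, 11 rose and 3 fell (median 0.68), and their summed RPKM went from 1132 to 1204 in vehicle to 8341 to 8902 in treated libraries, 7.32-fold. After Hspa1a and Hspa1b the largest rises were those of the Hsp110 gene Hsph1 (log2 fold change 3.37 ± 0.05), of Hspa8 (2.76 ± 0.05) and of Hspa5, the Hsp70 of the endoplasmic reticulum (2.41 ± 0.05). Hspa12b, a distant member known from endothelium, fell from 2.88, 3.07 and 3.06 RPKM to 1.4, 1.32 and 1.26 RPKM (-1.18 ± 0.12, adjusted p = 4.66e-08). Of the 8 subunits of TRiC, the chaperonin that folds actin and tubulin, 8 rose and none reached 2-fold (median 0.51). Cct7 rose from 53.1, 56.4 and 52.8 RPKM to 97.9, 101 and 110 RPKM, 1.9-fold (0.93 ± 0.05, adjusted p = 2.34e-12), and Cct3 rose 1.69-fold (0.76 ± 0.05). The subunits thus moved together and by less than the Hsp70 and Hsp110 genes with the largest rises. Other Hsp70 and Hsp110 genes lay within the range of the subunits (0.32 to 0.93), such as Hspa4 (0.68), Hspa13 (0.35) and Hyou1 (0.33).

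Amino acid transport and glutathione conjugation showed a few strong rises within mixed families. Of 12 tested SLC7 and SLC3 transporter genes, 8 rose and 3 fell (median 0.79). Slc7a11, the cystine importer that feeds glutathione synthesis, rose from 1.69, 1.61 and 1.47 RPKM to 25, 26.6 and 25.2 RPKM, 16.1-fold (log2 fold change 4.01 ± 0.06, adjusted p = 1.2e-20). Slc7a3, a carrier of cationic amino acids, rose from 0.366, 0.462 and 0.426 RPKM to 4.3, 4.67 and 4.7 RPKM, 10.9-fold (3.45 ± 0.14). Slc7a8, a carrier of large neutral amino acids, fell from 1.24, 1.11 and 1.33 RPKM to 0.154, 0.215 and 0.296 RPKM, 5.56-fold (-2.47 ± 0.22, adjusted p = 3.71e-09). Of 20 tested glutathione transferases, which couple glutathione to electrophiles, 10 rose and 5 fell (median 0.46). Gsta2 rose from 0.0905, 0.0551 and 0.076 RPKM to 1.9, 1.36 and 1.85 RPKM (4.44 ± 0.44) and Gsta1 rose 11.7-fold (3.55 ± 0.31), a pair of similar genes between which reads may be split. Gstt1, of the theta class, fell from 3.68, 2.16 and 3.36 RPKM to 0.959, 0.767 and 0.484 RPKM (-2.05 ± 0.26, adjusted p = 1.15e-06).

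Regulators of transcription rose in 3 of the leading families. Of 40 tested bZIP genes of the AP-1, ATF, CEBP and MAF types, 26 rose and 8 fell (median 0.54). Beside Atf3, Ddit3, which encodes the stress factor CHOP, rose from 40.9, 43.8 and 37.2 RPKM to 221, 228 and 271 RPKM, 5.9-fold (log2 fold change 2.56 ± 0.09, adjusted p = 2.32e-08), while Maf fell from 1.12, 1.17 and 1.07 RPKM to 0.257, 0.265 and 0.232 RPKM (-2.15 ± 0.15, adjusted p = 1.52e-10). Of 10 tested EGR, NR4A and IER early genes, 6 rose and 3 fell (median 0.60). Egr1, a zinc finger factor induced within minutes by growth factors, stood at 20.9, 21.1 and 21 RPKM in vehicle and at 135, 146 and 117 RPKM after 24 h (2.66 ± 0.07, adjusted p = 7.51e-13), and Ier5 rose 3.46-fold (1.79 ± 0.05). Ier5l fell from 25.5, 25.4 and 27.9 RPKM to 4.6, 4.55 and 3.84 RPKM, 6.05-fold (-2.60 ± 0.08, adjusted p = 3.53e-16). Of 33 tested subunits of Mediator, the bridge between activators and RNA polymerase, 23 rose and 8 fell (median 0.52), with 5 at least 2-fold higher. Med4 rose 2.87-fold (1.52 ± 0.07) and Med31 2.46-fold (1.30 ± 0.11), and Med16 fell 1.61-fold (-0.68 ± 0.07).

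Host genes of small nucleolar RNAs, whose introns release guides for RNA modification, were also among the leading 12, although the deposited table lists Snhg11 as protein coding. Of 16 tested, 10 rose and 1 fell (median 0.51). Snhg12 rose from 3.57, 4.03 and 3.9 RPKM to 12.2, 12.1 and 13.2 RPKM, 3.26-fold (log2 fold change 1.70 ± 0.08, adjusted p = 3.98e-13), and the rare Snhg11 rose from 0.05, 0.0304 and 0.056 RPKM to 0.606, 0.638 and 0.342 RPKM (3.52 ± 0.31). Snhg18 fell from 10.7, 8.05 and 9.32 RPKM to 3.33, 2.65 and 2.51 RPKM (-1.73 ± 0.14, adjusted p = 1.27e-09). The cytosolic ribosomal protein genes, outside the leading 12, showed a small and uniform step: 70 of 82 tested rose, 1 fell, and none changed 2-fold (median 0.40).

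The lowest median of all families was that of CENP and kinetochore genes, and replication genes fell as well. Of 36 tested CENP and kinetochore genes, which attach chromosomes to the spindle, 32 fell and 2 rose (median -2.34), and 75% were at least 2-fold lower. Cenpf fell from 3.39, 3.1 and 3.75 RPKM to 0.145, 0.144 and 0.0874 RPKM, 26.8-fold (log2 fold change -4.75 ± 0.13, adjusted p = 2.81e-14), and Nuf2, of the NDC80 complex, fell 19.9-fold (-4.31 ± 0.22). Zwint, which encodes a kinetochore protein, stood against them, rising from 32.9, 35.9 and 33.8 RPKM to 110, 110 and 122 RPKM, 3.34-fold (1.74 ± 0.05, adjusted p = 4.33e-16). It made up most of the family's summed RPKM in treated libraries, and that sum went from 261 to 267 in vehicle to 176 to 186 in treated libraries. Of 48 tested replication genes of the MCM, GINS, ORC and CDC types, 43 fell and 2 rose (median -1.05). Cdc6, which loads the MCM helicase, fell from 4.7, 5.21 and 5.01 RPKM to 0.35, 0.523 and 0.316 RPKM, 12.3-fold (-3.62 ± 0.14), Timeless, which protects replication forks, fell 11.1-fold (-3.48 ± 0.12), and Orc4, of the origin recognition complex, rose 1.84-fold (0.88 ± 0.06).

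DNA repair genes of the FANC, RAD and XRCC families were split. Of 43 tested, 30 fell and 8 rose (median -1.13), but the summed RPKM was about the same, 263 to 270 in vehicle and 265 to 268 in treated libraries. Fancd2, which is ubiquitinated in crosslink repair, fell from 2.06, 1.94 and 2.06 RPKM to 0.164, 0.135 and 0.0987 RPKM, 15.1-fold (log2 fold change -3.91 ± 0.16, adjusted p = 3.16e-14), and Fancb, of the Fanconi core complex, fell 10.8-fold (-3.44 ± 0.19). The mismatch repair gene Msh3 rose from 0.793, 0.858 and 0.793 RPKM to 2.74, 2.84 and 2.49 RPKM, 3.31-fold (1.73 ± 0.09, adjusted p = 9.66e-13).

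Interferon-induced genes fell nearly throughout. Of 56 tested members of these families, 52 fell and 2 rose (median -2.19), and 85.7% were at least 2-fold lower. Gbp4, a guanylate-binding protein, went from 0.266, 0.0822 and 0.0955 RPKM to 0.0109, 0 and 0.0116 RPKM (log2 fold change -4.34 ± 0.76, adjusted p = 7.84e-05; -3.59 without vehicle replicate 1 and -3.68 without treated replicate 2), and Iigp1 is described above. Vehicle replicate 1 held the most of both genes and of the family sum, which was 1214, 977 and 900 RPKM in vehicle and 459, 439 and 454 RPKM in treated libraries. Gbp4 had 2, 0 and 2 reads in treated libraries, so its fitted sizes depend on the prior count. Ifi30, a lysosomal thiol reductase, was among the members that rose, from 58.5, 65.5 and 66.3 RPKM to 97.5, 101 and 107 RPKM, 1.61-fold (0.69 ± 0.06, adjusted p = 2.26e-09). Macrophage and leukocyte markers fell beside these genes, from a sum of 238 to 282 RPKM to 92.9 to 110 RPKM; their part in the fall was not tested.

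Chemokines and their receptors fell as well. Of 27 tested, 22 fell and 2 rose (median -1.85), and the summed RPKM went from 243, 192 and 213 to 75.2, 49.5 and 44.9. Ccl12, a chemokine that attracts monocytes, went from 2.03, 1.15 and 2.22 RPKM to 0.0758, 0.0607 and 0 RPKM, a ratio of 38.4 (95% exact counting interval 10.4 to 321) with 2 reads left in the treated libraries. Cxcl12, which guides cells that carry Cxcr4, fell with a log2 fold change of -2.35 ± 0.14, and Cxcr4 itself did not pass the test (-0.20 ± 0.28). The decoy receptor Ackr2 rose from 0.0341, 0 and 0.00954 RPKM to 0.377, 0.51 and 0.376 RPKM (4.65 ± 0.59, adjusted p = 6.84e-07; 6.06 without vehicle replicate 1). Ackr2 had 4, 0 and 1 reads in vehicle, so its fitted sizes depend on the prior count. The macrophage and leukocyte markers given for the interferon genes moved with the chemokines too, and their part was not tested.

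Matrix families fell, and some of their members spread widely between libraries. Of 10 tested small leucine-rich proteoglycans, which bind collagen fibrils, 9 fell and none rose (median -1.91). Prelp went from 35.6, 23.1 and 44.7 RPKM to 5.99, 4.23 and 2.84 RPKM, 7.9-fold (log2 fold change -2.98 ± 0.41, adjusted p = 0.00262), and Aspn, asporin, from 1.9, 1 and 2.28 RPKM to 0.415, 0.249 and 0.0185 RPKM (-2.89 ± 0.66, adjusted p = 0.00847; -3.54 without treated replicate 1). Dcn, decorin, did not pass the test (-0.46 ± 0.21, adjusted p = 0.113), and Bgn, biglycan, fell by 0.31 on the log2 scale. Of 33 tested collagen chain genes, 22 fell and 2 rose (median -1.02), and the summed RPKM went from 2786, 2430 and 2976 to 1389, 1305 and 1326. Col11a1, of fibrillar collagen, fell from 6.94, 6 and 6.88 RPKM to 0.923, 0.795 and 0.727 RPKM, 8.11-fold (-3.02 ± 0.09, adjusted p = 2.06e-15), and Col2a1, the cartilage collagen, fell 9.42-fold from under 1 RPKM (-3.24 ± 0.23). Col17a1, a transmembrane collagen of epithelial hemidesmosomes, rose from 0.0974, 0.119 and 0.114 RPKM to 0.433, 0.26 and 0.384 RPKM, 3.24-fold (1.69 ± 0.31, adjusted p = 6.07e-05). Vehicle replicate 2 was the lowest vehicle library for the collagen sum and for Prelp and Aspn.

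Genes in the list of WNT ligands and frizzled receptors fell on balance. In the WNT list, which also holds the secreted inhibitors of the DKK and SFRP types, 18 of 22 tested genes fell and 3 rose (median -1.22). The inhibitor Dkk2 fell from 1.63, 1.33 and 1.71 RPKM to 0.0439, 0.0527 and 0.0117 RPKM, 40.1-fold (log2 fold change -5.33 ± 0.32, adjusted p = 1.17e-11), and the inhibitor Sfrp2 fell from 2.84, 1.9 and 4.86 RPKM to 0.473, 0.408 and 0.243 RPKM (-3.08 ± 0.44, adjusted p = 0.000485). Receptors fell too, among them Fzd2 (-2.64 ± 0.10) and Fzd4 (-2.64 ± 0.12), while the coreceptor Lrp6 did not pass the test (0.03 ± 0.05). The ligand Wnt11, known for signalling without beta-catenin, rose from 2, 2.03 and 2.18 RPKM to 8.91, 8.87 and 10.1 RPKM, 4.49-fold (2.17 ± 0.09, adjusted p = 1.96e-14), and Wnt2 and Fzd3 were the other members that rose. The inhibitors Dkk2 and Sfrp2 and the receptors Fzd2 and Fzd4 thus fell, while the receptor Fzd3 rose. Wnt11 and Wnt2 were named because they rose, so they do not stand for the other ligands of the list.

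Growth factor and adhesion families followed the same direction. Of 20 tested FGF and PDGF ligands and receptors, 11 fell and 5 rose (median -1.01). Fgf2, the basic fibroblast growth factor, fell from 31.1, 31.5 and 29.4 RPKM to 4.87, 5.06 and 3.7 RPKM, 6.72-fold (log2 fold change -2.75 ± 0.11, adjusted p = 2.09e-07), and Fgf13, an intracellular member that binds sodium channels, fell from 0.609, 0.734 and 0.623 RPKM to 0.081, 0.186 and 0.0217 RPKM (-2.66 ± 0.40; -3.62 without treated replicate 2), in contrast to Fgf21. Of 56 tested cadherin and protocadherin genes, 39 fell and 5 rose (median -1.05). Pcdh18 fell from 8.48, 9.57 and 9.35 RPKM to 1.36, 1.18 and 1.36 RPKM, 7.05-fold (-2.82 ± 0.09, adjusted p = 4.87e-16). Pcdhgc4 fell 7.23-fold (-2.85 ± 0.28), but the genes of its cluster share exons, so its reads are uncertain. Cdh23, the cadherin of hair cell tip links, rose from 0.044, 0.0325 and 0.0194 RPKM to 0.394, 0.421 and 0.329 RPKM, 11.8-fold (3.56 ± 0.25, adjusted p = 1.35e-10).

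Sterol synthesis enzymes and SOX factors complete the 12 families with the lowest medians. Of 24 tested sterol synthesis genes, 18 fell and 3 rose (median -1.13), and the summed RPKM went from 180 to 204 in vehicle to at most 126 in treated libraries. Mvk, mevalonate kinase, fell from 8.8, 7.77 and 9.49 RPKM to 2.11, 1.92 and 2.28 RPKM, 4.14-fold (log2 fold change -2.05 ± 0.11, adjusted p = 2.17e-12), and Idi1, which isomerises isopentenyl diphosphate, fell 4.34-fold (-2.12 ± 0.15). Sc5d, a late desaturase of the pathway, rose from 11.6, 11.1 and 12.6 RPKM to 23.9, 24.8 and 25.3 RPKM, 2.09-fold (1.06 ± 0.05, adjusted p = 9.62e-13). Of 12 tested SOX factor genes, 8 fell and 1 rose (median -1.15). Sox12 fell from 4.07, 3.72 and 4.48 RPKM to 1.11, 0.878 and 0.762 RPKM, 4.46-fold (-2.16 ± 0.13, adjusted p = 1.66e-11), and Sox18, of endothelium, fell 4.08-fold (-2.03 ± 0.39). Sox7 was at 1.52, 1.56 and 1.57 RPKM in vehicle and at 2.33, 2.06 and 2.03 RPKM in treated libraries (0.47 ± 0.14, adjusted p = 0.00498), a call that was lost with library totals (0.27, adjusted p = 0.0827).

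The 4 families with medians nearest 0 were not still. Among 21 tested nucleoporins, 10 rose and 8 fell: Nup93 rose 1.78-fold (log2 fold change 0.83 ± 0.05) and Nup54 1.74-fold (0.80 ± 0.05), and Nup107 fell from 13.2, 13.6 and 13.8 RPKM to 5.16, 5.01 and 4.22 RPKM, 2.82-fold (-1.50 ± 0.08). Of 78 tested mitochondrial ribosomal protein genes, 31 rose and 29 fell, and the summed RPKM was 1212 to 1272 in vehicle and 1179 to 1296 in treated libraries. Mrpl42 fell 2.29-fold (-1.19 ± 0.08) and Mrpl57 2.26-fold (-1.18 ± 0.08), and Mrps9 rose 2.35-fold (1.23 ± 0.09), so subunits of 1 particle moved apart by more than their errors. Of 46 tested TRIM ubiquitin ligases 15 rose and 21 fell, with Trim54 at the upper end and Trim59 down 4.25-fold (-2.09 ± 0.06). Of 9 tested T-box factors 2 rose and 3 fell. Tbx20, a regulator of heart development, fell from 63.5, 62.6 and 63.7 RPKM to 11.4, 9.58 and 8.16 RPKM, 6.51-fold (-2.70 ± 0.13, adjusted p = 4.46e-06), and it carried most of the family's sum of 90.7 to 92 RPKM in vehicle.

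Transcription factors were also grouped by the class given in the deposited table. The bZIP class had the highest median among classes of at least 20 tested genes (0.52, with 28 of 45 higher and 10 lower), followed by ZBTB (0.16, 23 higher and 19 lower of 48) and C2H2 zinc fingers (0.09, 177 higher and 142 lower of 470). The lowest were HMG (-0.49, 9 higher and 20 lower of 38), homeobox (-0.46, 15 higher and 33 lower of 75) and forkhead (-0.31, 11 higher and 11 lower of 26). Dbp, a clock-controlled bZIP factor, fell from 4.4, 4.97 and 5.85 RPKM to 0.557, 0.86 and 0.567 RPKM (log2 fold change -2.91 ± 0.17). Hmgb2, a chromatin protein of dividing cells, fell from 18.9, 17.7 and 18.9 RPKM to 2.48, 2.7 and 1.93 RPKM, 7.75-fold (-2.95 ± 0.09, adjusted p = 3.66e-15), while Tox2 of the same class rose from 0.0391, 0.152 and 0.167 RPKM to 3.91, 3.73 and 3.48 RPKM (4.98 ± 0.26, adjusted p = 4.09e-11). The homeobox gene Hmx3 rose from 0.0548, 0.111 and 0.0614 RPKM to 1.98, 1.68 and 1.64 RPKM (4.52 ± 0.40, adjusted p = 3.77e-09). Foxm1, the forkhead factor of mitotic genes, fell from 13.8, 14.2 and 13.9 RPKM to 4.62, 4.28 and 3.74 RPKM, 3.31-fold (-1.73 ± 0.07, adjusted p = 2.56e-14).

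Most genes of the 24 h response were not called at 4 h. The 4 h libraries had their own vehicle controls, and a fit of all 12 libraries tested the difference of the responses. That difference was called for 8796 of 16341 genes (53.8%), and the 4 h response itself for 2198 (13.5%). Of the 2100 genes at least 2-fold higher at 24 h that entered this fit, 552 (26.3%) were already called in the same direction at 4 h, and the responses differed for 1688 (80.4%). Of the 2781 at least 2-fold lower genes these numbers were 555 (20%) and 2405 (86.5%). Over all genes 13.5% were called at 4 h in either direction. The 3 largest rises at 100 RPKM or more were called at 4 h, with log2 fold changes of 5.43 (Hspa1a), 4.89 (Hspa1b) and 2.41 (Hmox1). The 3 largest falls there were not called at 4 h (Ccn5 -0.57, Mgp -0.02, Col3a1 -0.05). Whether the libraries of the 2 times differ in more than hours is not stated, beyond the column prefix named above.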

How the data were processed

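RNA sequencing of 6 libraries at 24 h, with 6 at 4 h for the test across times, was analysed from 1 table per time. Per the submitters' processing notes, the tools of the authors were DESeq2, of a version that is not named, featureCounts 1.5.0-p3 and HISAT2 2.0.5, on GRCm39 (mm39). The deposited tables hold raw counts, FPKM values, gene lengths, biotypes, transcription factor classes, and the authors' own log2 fold changes with p-values and adjusted p-values; symbols and coordinates are theirs. Genes with fewer than 2 counts in total are not in the tables, and 11445 listed genes did not pass the filter on low counts.

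Counts were tested with edgeR 4.0.16 (quasi-likelihood, robust, default filter, TMM scaling) in R 4.3.3, adjusted by Benjamini-Hochberg over all genes tested and called at an adjusted p under 0.05. Depth was 25016754 to 34877090 counts per library. The fit of 12 libraries entered a gene listed at 1 time as 0 at the other. RPKM was computed from TMM-scaled counts and the deposited gene length, and errors are SE of the fit or SD over libraries. The script was tested on simulated data.

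Members, gene lists, families and markers were chosen with earlier results of these data known. Named were, per abundance class, the 3 coding genes that rose most and the 3 that fell most among called genes whose groups did not overlap; the same for lncRNA at 1 RPKM or more, and 1 and 1 for other biotypes with at least 20 tested genes; for 28 families (12 highest, 12 lowest and 4 nearest 0 by median) the 2 called members that changed most with the median and the 1 against it; and leading genes of transcription factor classes. Not every gene so chosen is printed, and members added from within a family (Psmb8, Psmb10, Psme1, Psme2b, Hsph1, Hspa5, Cxcl12, Cxcr4, Bgn, Dcn, Fzd2, Fzd4, Fzd3, Lrp6, Wnt2) were chosen after their values were seen. Alternatives were other scalings, filters, DESeq2 1.42.0, limma 3.58.1 on log2(deposited FPKM + 0.5), a replicate block, and leaving out each library. Promoter windows came from RefSeq on GRCm38.p6, another build than that of the tables, and were matched by symbol, 42 of them by an older one. The AP-1 and cell cycle motifs were those whose share in rising or falling genes exceeded that of all genes with a window the most. The excess was taken in percentage points, and this comparison is not reported since it is void. Results for some genes are not reported here.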

Additional observations from a re-analysis of the deposited data

Results flagged for a closer look

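The 24 h and 4 h responses differed for 29 of the genes named by abundance class or as lncRNA. The test was the interaction in edgeR over 12 libraries (adjusted p under 0.05, adjusted over all genes). Defb42, the only other gene so named, did not enter that fit. All were chosen for a large change at 24 h, so this count was largely set by the choice. Over all genes the difference was called for 53.8%. Among genes at least 2-fold higher or lower at 24 h it was called for 80.4% and 86.5%. Values are the 24 h minus the 4 h log2 fold change. Where 1 of the groups at 24 h held at most 8 reads in all, the size depends on the prior count and is no bound; this holds for Krtap4-16 (9.86), Grhl2 (7.81), Trim54 (7.55), Fgf21 (6.88), Mt3 (6.43), Rnf183 (3.90), Gm35037 (2.73), Gdf10 (-7.87), Dclk3 (-5.28) and Olfml1 (-5.25).

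The response was further up at 24 h for Nppb (6.23), Star (5.53) and Atf3 (4.46), and by less for Hmox1 (1.94), Hspa1a (1.93) and Hspa1b (1.71). It was further down for Iigp1 (-5.00), Heyl (-4.48) and the matrix genes Mgp (-3.14), Ccn5 (-3.08) and Col3a1 (-2.74), and for the mitotic genes Ccna2 (-3.65), Ckap2l (-3.50) and Plk1 (-3.23). Among lncRNA genes it was further up for 4933412O06Rik (4.37) and Gm11351 (3.78), and further down for Gm33228 (-4.30), ENSMUSG00000120992 (-3.37) and H19 (-3.19).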

How the results depend on the processing

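The number of genes called at 24 h was 11628 and ran from 10264 (at least 50 counts in 3 or more libraries) to 12427 (no filter on low counts) over the alternatives, with 11229 by DESeq2 and 11235 to 11595 when 1 library was left out. The number called and changed at least 2-fold, 4908, fell to 2831 (1250 higher and 1581 lower) with limma on log2(FPKM + 0.5), where the added constant shrinks the fold of rare genes; it was 3651 with the strict filter and 4898 to 5171 without 1 library. With library totals 31.5% of these genes were higher, against 43% with TMM. The number whose responses at 24 h and 4 h differ, 8796, was 8114 to 9120 without 1 library.

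Replicate numbers did not pair the libraries: same-numbered deviations correlated at 0.0133, 0.02 and -0.043, and not every library correlated best with its own number. The fit with the replicate block called 11474 genes at 24 h, 4874 of them at least 2-fold, and 8881 differences between times. All 127 named genes kept direction and call under every scaling, the block and each left-out library, except Sox7 with library totals. Leaving out 1 library moved the fold of 27 of them by over 1.5 times. Medians of families near 0 changed sign with scaling: 12 of 79 with library totals, 6 with the upper quartile and 3 with DESeq2 size factors. With 3 libraries per group, rare genes carry few reads and their sizes are uncertain.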

Other observations

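Among the 12 most abundant lncRNA genes at 24 h, listed by mean RPKM after the values were seen, the called changes were of both directions. Malat1, a nuclear transcript of speckles, rose from 68.5 ± 14.8 to 226 ± 49.2 RPKM (SD, n = 3; log2 fold change 1.72 ± 0.26 SE, adjusted p = 0.00389). Gas5, a host gene of small nucleolar RNAs, rose from 18.7 ± 0.376 to 37.9 ± 2.76 RPKM (1.02 ± 0.05), and Mir22hg, the host of miR-22, rose from 11.6 ± 0.615 to 32.2 ± 4.69 RPKM (1.48 ± 0.10). The unnamed gene ENSMUSG00000121069 fell from 71.8 ± 12.7 to 7.51 ± 3.1 RPKM (-3.26 ± 0.37, adjusted p = 0.00135). Norad, a cytoplasmic transcript that binds Pumilio proteins, was at 29.2 ± 1.08 and 32.9 ± 1.39 RPKM (0.18 ± 0.05).

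Gene length went with small steps in the median response. With coding genes in 5 equal groups by gene span, the median log2 fold change was -0.16, -0.07, -0.03, 0.01 and -0.08 from the shortest to the longest. By exonic length it was -0.12, -0.08, -0.08, -0.03 and 0.00. These steps are small beside the range between families. From the shortest to the longest group by exonic length, the share called went from 73.3% to 83.3%. The share called higher went from 32.2% to 42.6%, and the share called lower from 41.1% to 40.7%. Mitochondrially encoded protein genes had 7 of 12 tested members lower and none higher (median -0.43), beside 38% lower and 36.7% higher over all genes. Their summed RPKM overlapped between groups, at 3660, 4134 and 4656 in vehicle and at 4132, 3708 and 3041 in treated libraries.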
